A study of Mus musculus with 6 samples.

Results

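The receptors of ER-phagy, the selective autophagy of the endoplasmic reticulum (ER), were followed at the transcript level in mouse hearts exposed to doxorubicin, an anthracycline chemotherapy drug that injures heart muscle. The 10 genes were taken by name from a count table of 35618 genes, and each of the 10 matched a single row: Retreg1, Retreg2, Retreg3, Rtn3, Sec62, Ccpg1, Atl3, Tex264, Calcoco1 and Cdk5rap3. RNA of myocardial tissue was sequenced in 3 libraries labelled GSDMD-FLOX/FLOX (homozygous floxed alleles, the controls) and 3 labelled GSDMD-CKO, a knockout of Gsdmd that the labels call specific to the myocardium without naming the recombinase or its promoter. The mice behind all 6 libraries, 6 to 8 weeks old, had received doxorubicin at 20 mg/kg by intraperitoneal injection 3 days earlier, and neither untreated hearts nor hearts of other genotypes were analysed here. Gsdmd encodes gasdermin D, which forms membrane pores during pyroptosis, and the title of the study links it to ER stress through FAM134B, the protein that Retreg1 encodes.

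In ER-phagy, a receptor sits in or on the ER and binds proteins of the LC3 and GABARAP family on a forming autophagosome, so that a piece of ER is enclosed and carried to the lysosome. Different receptors serve different ER domains: FAM134B is known for ER sheets, RTN3 and ATL3 for ER tubules, SEC62 for the recovery after ER stress, CCPG1 for ER under an unfolded protein response, and CALCOCO1 and CDK5RAP3 are soluble proteins that attach to ER membrane proteins. In muscle the ER includes the sarcoplasmic reticulum, the calcium store of contraction.

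The libraries held 17279147 to 18875902 counted reads. Gsdmd divided them as labelled, at 6696, 8258 and 7848 CPM (counts scaled to a common library size, with TMM factors) in floxed libraries 1, 2 and 3 and at 77.3, 136 and 111 CPM in knockout libraries 1, 2 and 3. The 10 markers of cardiomyocytes were all detected, with summed levels of 19006 to 28076 CPM in floxed and 11955 to 24908 CPM in knockout libraries. Mitochondrially encoded genes took 5.48% to 18.1% of the reads, the highest share being in knockout library 1. The labels do not say whether each library is a separate animal, so the p-values below measure the spread between libraries, which may be technical.

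Retreg1 has several annotated starts, and the start regions of the receptors on which the results turn are shown here because a count over a whole gene adds up the transcripts of every start. In RefSeq's GRCm38.p6 annotation Retreg1 has 4 start windows, the last 3 lying 90254, 97404 and 99381 bases beyond the first. In GENCODE M21, the transcript from the first start encodes 480 residues and 2 transcripts from starts about that of window 3 encode 356, a shorter form without the N-terminal part. Transcripts that start between these 2 are annotated with 54 and 364 residues. Windows span 250 bases before to 50 bases after a start and are printed from 5′ to 3′ on the strand of the gene, with capitals marking matches to the motifs described next; Calcoco1 is shown because its level followed Retreg1 most closely among the receptors, and Tex264 because it had the smallest p.
Retreg1 start 1, chr15:25843048-25843347, plus strand: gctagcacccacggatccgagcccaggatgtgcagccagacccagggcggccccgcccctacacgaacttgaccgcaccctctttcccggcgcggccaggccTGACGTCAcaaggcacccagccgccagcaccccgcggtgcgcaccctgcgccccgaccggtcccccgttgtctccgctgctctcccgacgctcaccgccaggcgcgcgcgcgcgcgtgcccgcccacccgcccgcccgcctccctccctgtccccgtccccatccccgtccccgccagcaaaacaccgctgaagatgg
Retreg1 start 3, chr15:25940452-25940751, plus strand: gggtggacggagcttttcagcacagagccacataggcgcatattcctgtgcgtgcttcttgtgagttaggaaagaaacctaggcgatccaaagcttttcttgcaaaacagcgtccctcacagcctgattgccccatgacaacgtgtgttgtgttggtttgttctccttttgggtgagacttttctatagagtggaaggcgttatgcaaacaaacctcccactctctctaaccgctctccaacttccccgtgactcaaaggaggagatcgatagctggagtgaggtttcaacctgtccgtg
Retreg1 start 4, chr15:25942429-25942728, plus strand: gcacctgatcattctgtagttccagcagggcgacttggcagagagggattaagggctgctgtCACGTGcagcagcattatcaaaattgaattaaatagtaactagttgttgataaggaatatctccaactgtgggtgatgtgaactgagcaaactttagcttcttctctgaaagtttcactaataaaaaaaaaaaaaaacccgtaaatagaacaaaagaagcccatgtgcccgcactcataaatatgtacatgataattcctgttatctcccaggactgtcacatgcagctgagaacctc
Calcoco1, chr15:102722129-102722428, minus strand: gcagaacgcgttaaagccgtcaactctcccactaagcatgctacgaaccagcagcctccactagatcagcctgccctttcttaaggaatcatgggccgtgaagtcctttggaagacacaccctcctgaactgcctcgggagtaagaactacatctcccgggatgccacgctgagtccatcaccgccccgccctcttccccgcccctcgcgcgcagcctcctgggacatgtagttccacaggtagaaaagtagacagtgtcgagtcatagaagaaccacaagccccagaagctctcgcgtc
Tex264 start 1, chr9:106685903-106686202, minus strand: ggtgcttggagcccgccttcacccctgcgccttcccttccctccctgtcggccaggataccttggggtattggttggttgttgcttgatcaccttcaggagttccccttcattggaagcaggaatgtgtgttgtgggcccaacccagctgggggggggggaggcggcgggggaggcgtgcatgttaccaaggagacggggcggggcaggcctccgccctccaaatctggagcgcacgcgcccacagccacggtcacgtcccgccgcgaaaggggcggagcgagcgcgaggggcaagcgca

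All 10 receptors had at least 1 such window, 15 in all. Searched on both strands, CACGTG, the palindromic E-box that TFEB and related factors can bind, occurred in windows of Retreg1 (start 4, 188 bases upstream), Retreg2 (at 70 and 50 bases upstream) and Sec62 (32 bases upstream), 3 of 15 windows against 7.15% of 32851 windows of all genes. TGACGTCA, the cyclic AMP response element, occurred in 1 window, at start 1 of Retreg1, 148 bases upstream, against 1.79% of all windows. TGATGNAA, the element bound by C/EBP and ATF4 dimers, was present in 1 window, of Cdk5rap3, against 3.97%, and GTAAACA, the core of forkhead sites, in 1 window, of Retreg2, against 3.65%. The printed windows of Calcoco1 and Tex264 held none of these letters, which says nothing of the factors. None of these matches overlapped another.

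Per unit of length, Retreg1 had the highest mean of the receptors over all 6 libraries and Ccpg1 the lowest, but the top place differed by genotype. In FPKM, Retreg1 averaged 50.9 ± 28.6 in floxed and 26.8 ± 14.9 in knockout libraries (SD, n = 3), and Rtn3 28.1 ± 2.49 and 32.4 ± 5.90. The authors' deposited FPKM values, which are scaled by gene length and library size, over the 6 libraries averaged 38.9 ± 24.3 (SD, n = 6) for Retreg1, 30.2 ± 4.69 for Rtn3, 28.3 ± 7.05 for Tex264, 23.7 ± 1.83 for Retreg3, 23.0 ± 1.65 for Sec62, 20.1 ± 2.85 for Retreg2, 18.9 ± 7.24 for Calcoco1, 16.6 ± 2.32 for Cdk5rap3, 7.06 ± 0.728 for Atl3 and 0.188 ± 0.169 for Ccpg1. The order of the first 8 was not fixed: Retreg1 held ranks from 1 to 7 depending on the library, and Calcoco1 from 2 to 8. Some were nevertheless apart. The highest FPKM of Cdk5rap3 (19.6) lay below the lowest of Rtn3 (25.6), Sec62 (21.2), Tex264 (20.7) and Retreg3 (20.7). Atl3 was in rank 9 and Ccpg1 in rank 10 in each of the 6 libraries. Retreg1 made up 13.0%, 32.1% and 19.3% of the summed FPKM of the 10 receptors in floxed libraries 1, 2 and 3 and 22.3%, 8.52% and 11.8% in knockout libraries 1, 2 and 3. The sum of the other 9 was steadier, at 172, 174 and 188 FPKM in the floxed and 151, 154 and 171 FPKM in the knockout libraries.

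**Figure D1:**
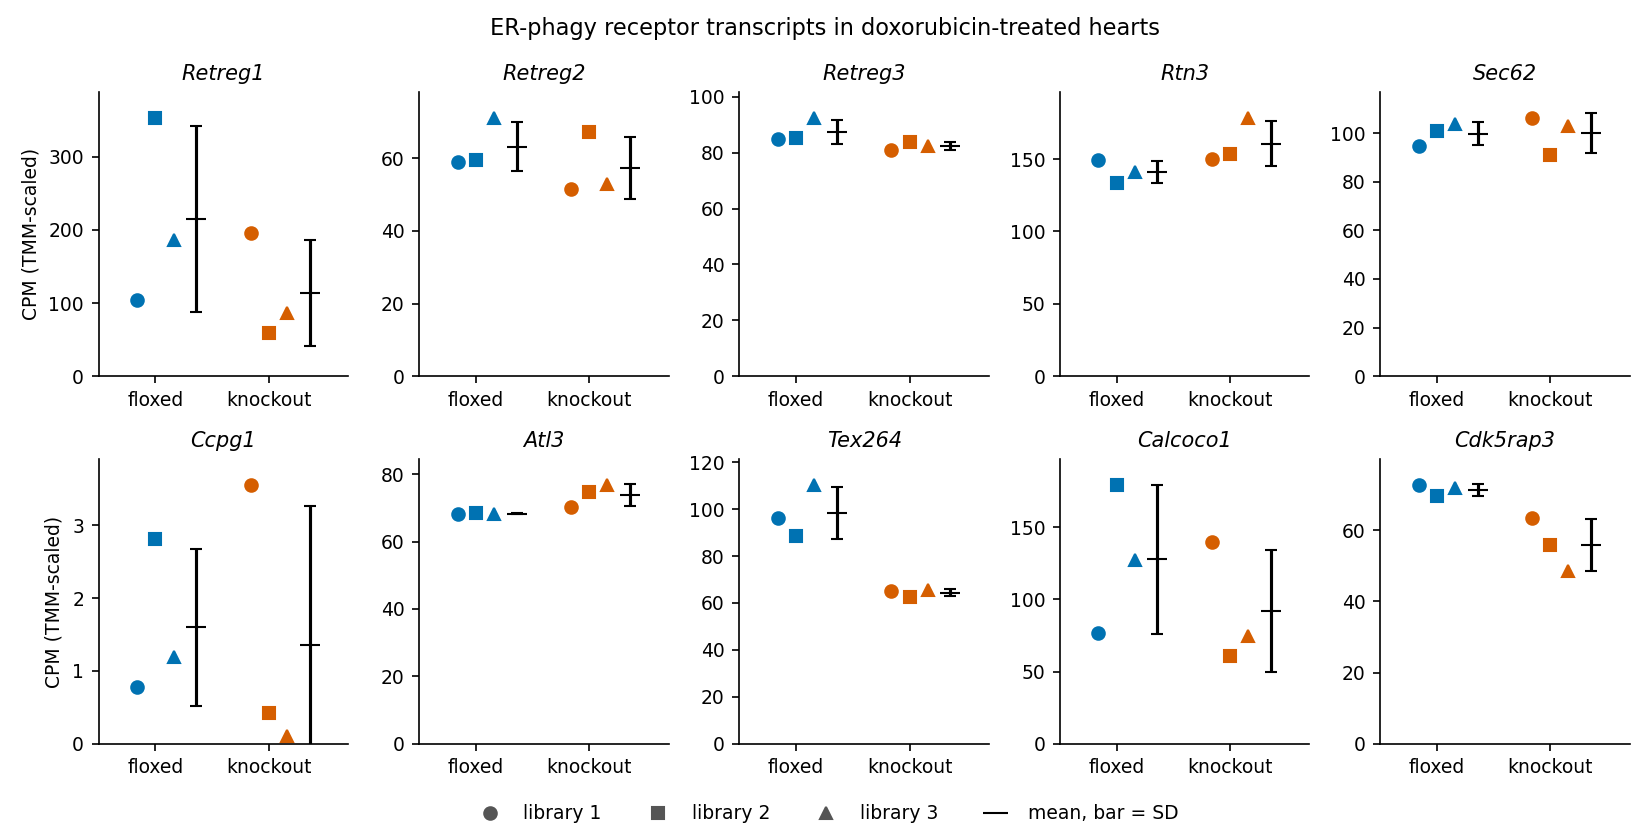
TMM-scaled CPM of each receptor (vertical axis from 0) in the 3 floxed (blue) and 3 knockout (orange) libraries, with the mean and SD of each group in black; the SD bar of Ccpg1 in the knockout runs below 0 and is cut at the axis. Retreg1, Calcoco1 and Ccpg1 spread widely within both genotypes, Tex264 and Cdk5rap3 lie lower in every knockout library, and Atl3, Retreg3 and Sec62 vary little.

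None of the 10 receptors passed the genotype test, in which counts of knockout and floxed libraries were compared with edgeR's quasi-likelihood test and Benjamini-Hochberg adjustment over all genes. All 10 passed the filter on low counts. Over 16591 genes tested 2 passed, which is 0.0121%: Gsdmd and Tnnt3, which encodes the fast skeletal muscle form of troponin T (log2 fold change -3.44, SE 0.25, adjusted p = 0.0192, edgeR). The receptors' adjusted p-values ran from 0.529 to 0.998. Of the 10, 7 had negative log2 fold changes (knockout minus floxed), against 46.2% of all genes, and their median was -0.20, beside 0.03 for all genes tested. At an unadjusted p under 0.05, 1 receptor was lower and 0 were higher, where 2.65% of all genes were lower and 4.37% higher. In TMM-scaled CPM, every knockout library lay below every floxed library for 3 receptors (Tex264, Cdk5rap3 and Retreg3), against 5.98% of all genes, and above for 2 (Rtn3 and Atl3), against 5.82%. This depended on the scale: in the deposited FPKM, the genotypes stayed apart for Tex264 and Cdk5rap3 and overlapped for Retreg3, Rtn3 and Atl3.

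**Figure D2:**
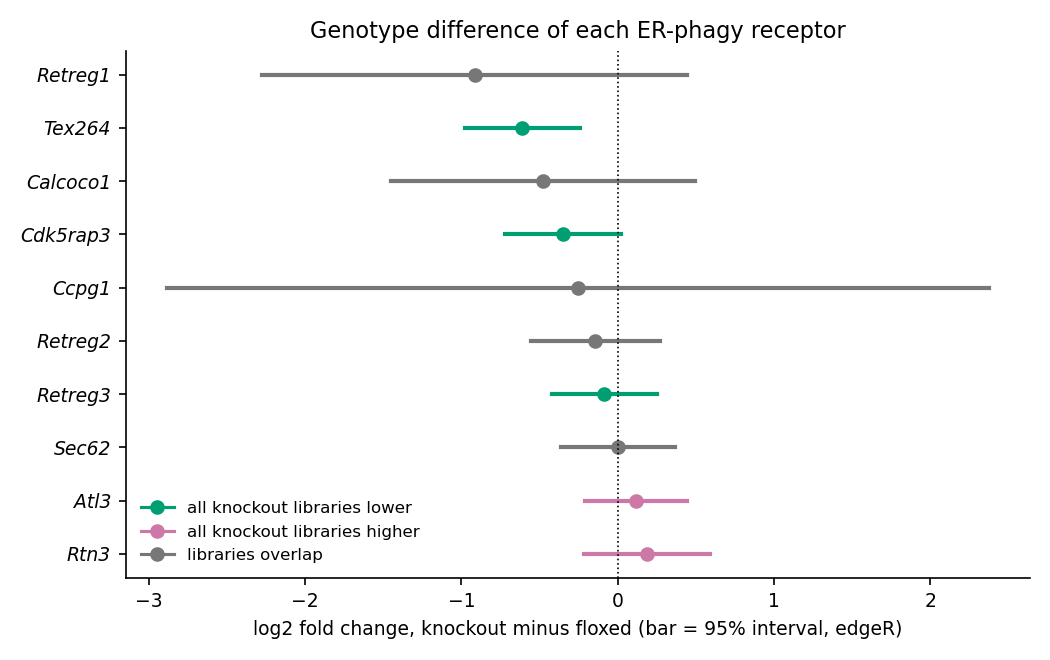
Log2 fold change of each receptor, knockout minus floxed (horizontal axis), with its 95% interval from edgeR over 3 libraries per genotype; colour marks whether the libraries of the genotypes overlap. The interval of Tex264, from -0.98 to -0.24, excludes 0, whereas those of the other 9 receptors include it.

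Within the FAM134 family, the level of Retreg1, the founding ER-phagy receptor, differed more within each genotype than between them. Retreg1 (ENSMUSG00000022270, chromosome 15, 25843266 to 25973773, plus strand) measured 104, 353 and 186 CPM in floxed libraries 1, 2 and 3 and 196, 58.5 and 86.3 CPM in knockout libraries 1, 2 and 3. Floxed library 2 was the highest and knockout libraries 2 and 3 were the lowest, while knockout library 1 was above floxed libraries 1 and 3, so the genotypes overlapped. Floxed libraries averaged 215 ± 127 CPM and knockout libraries 114 ± 72.8 CPM (SD, n = 3), and the log2 fold change was -0.92 (SE 0.58, 95% interval -2.28 to 0.44, adjusted p = 0.854, edgeR). That interval runs from 0.207 to 1.36 times the floxed level. Without knockout library 1 the log2 fold change was -1.58 (adjusted p = 0.149), without floxed library 2 it was -0.36 (adjusted p = 0.9996) and without knockout library 2 -0.61 (adjusted p = 0.9996). Gsdmd also failed in both of these last fits, at adjusted p-values of 0.0724 and 0.166 (edgeR).

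The paralogues Retreg2 (FAM134A) and Retreg3 (FAM134C), which share the membrane-bending reticulon domain of FAM134B, varied far less. Retreg2 (ENSMUSG00000049339, chromosome 1, 75119422 to 75124557, plus strand) measured 59.1, 59.5 and 71.1 CPM in floxed and 51.6, 67.1 and 53.0 CPM in knockout libraries. The genotypes overlapped, with a log2 fold change of -0.14 and a 95% interval from -0.55 to 0.27. It was -0.28 without knockout library 2, -0.072 without floxed library 3, -0.093 without knockout library 1 and -0.092 without knockout library 3. Retreg3 (ENSMUSG00000017802, chromosome 11, 100987148 to 101010719, minus strand) measured 84.8, 85.1 and 92.5 CPM in floxed and 81.2, 83.7 and 82.5 CPM in knockout libraries. These CPM values did not overlap, though the FPKM values did (22.8 to 25.8 in floxed and 20.7 to 25.1 in knockout libraries), and the difference was small, a log2 fold change of -0.09 with a 95% interval from -0.42 to 0.25. Over the 6 libraries the highest value of Retreg1 was 6.04 times the lowest, a ratio that 6.13% of 13441 protein-coding genes with a mean of at least 1 CPM exceeded. The ratios were 1.38 for Retreg2 and 1.14 for Retreg3, exceeded by 83.3% and 99.4% of those genes. As a result the FPKM of Retreg1 ranged from 0.632 to 4.30 times that of Retreg2 and from 0.606 to 3.60 times that of Retreg3 in the same library, being the lowest of the family in knockout library 2.

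The receptors of ER tubules, Rtn3 and Atl3, had small positive log2 fold changes with intervals that include 0. Rtn3 (ENSMUSG00000024758, chromosome 19, 7403266 to 7460646, minus strand), whose long isoform is the ER-phagy receptor, measured 149, 134 and 141 CPM in floxed and 150, 154 and 179 CPM in knockout libraries. The lowest knockout and the highest floxed values nearly touched, and the FPKM values overlapped (25.6 to 30.5 in floxed and 27.3 to 38.9 in knockout libraries). The log2 fold change was 0.19 with a 95% interval from -0.22 to 0.59 (0.10 without knockout library 3), and counts per gene do not tell the long isoform from the short ones. Atl3 (ENSMUSG00000024759, chromosome 19, 7471405 to 7517039, plus strand), a GTPase that fuses ER tubules and binds GABARAP, measured 68.2, 68.4 and 68.1 CPM in floxed and 70.3, 74.8 and 76.7 CPM in knockout libraries. In CPM, Atl3 was the steadiest receptor, with a highest-to-lowest ratio of 1.13 that 99.6% of the genes exceeded. In FPKM its ratio was 1.305, and only Sec62 (1.221) and Retreg3 (1.248) had lower ones. Its log2 fold change was 0.12, with a 95% interval from -0.21 to 0.44, and in FPKM knockout library 1, at 6.36, lay below the floxed range of 6.50 to 6.95.

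Sec62, a partner of the SEC61 protein-conducting channel that also acts as a receptor when ER stress subsides, was nearly equal in the genotypes. Sec62 (ENSMUSG00000027706, chromosome 3, 30847024 to 30875412, plus strand) measured 94.6, 101 and 104 CPM in floxed and 106, 91.0 and 103 CPM in knockout libraries. The values overlapped, at a log2 fold change of 0.0040 (95% interval -0.36 to 0.37). Its sign turned with other scalings, to -0.0042 with RLE normalisation and to -0.0145 with library sizes that left out mitochondrial genes and Gsdmd.

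Ccpg1, a receptor that binds FIP200 as well as LC3 and GABARAP proteins and is induced by the unfolded protein response, was close to the detection limit in these libraries. Ccpg1 (ENSMUSG00000034563, chromosome 9, 72892711 to 72923622, plus strand) had 15, 47 and 22 counts in floxed and 56, 8 and 2 counts in knockout libraries. Its highest values were in knockout library 1 and floxed library 2, the libraries that were also highest for Retreg1. The CPM were 0.778, 2.82 and 1.19 in floxed and 3.55, 0.418 and 0.0997 in knockout libraries, the lowest resting on fewer counts than the 3 taken as a floor (0.150 CPM in that library). The log2 fold change of -0.26 had a 95% interval from -2.89 to 2.37 and depended on the method, from -1.35 with limma-voom to -0.065 with limma on log2(FPKM + 1), and it turned positive when floxed library 2 (0.43), knockout library 2 (0.17) or knockout library 3 (0.30) was left out; it was -2.62 (adjusted p = 0.155, edgeR) when knockout library 1 was. Ccpg1 shares 8922 bases of its span with Pigb, on the opposite strand, which had 110 to 195 counts. Opposite-strand overlaps were shorter for Rtn3 (4 bases, 2700081O15Rik), Sec62 (690 bases, 4933429H19Rik) and Cdk5rap3 (227 bases, D030028A08Rik). The strand setting of the counting was not stated, so reads of such partners may be mixed.

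Tex264, a single-pass ER membrane protein that is among the most productive ER-phagy receptors in cultured human cells, had the clearest separation. Tex264 (ENSMUSG00000040813, chromosome 9, 106535945 to 106563126, minus strand) measured 96.4, 88.4 and 110 CPM in floxed and 65.3, 62.6 and 65.4 CPM in knockout libraries. All 3 knockout libraries lay within a narrow band below the floxed range. The means were 98.3 ± 11.02 and 64.4 ± 1.61 CPM (SD, n = 3), and the log2 fold change was -0.61 (SE 0.16, 95% interval -0.98 to -0.24). Its p of 0.0056 ranked 175 among all genes, and the adjusted p in edgeR's quasi-likelihood test was 0.529, so the difference did not pass. With DESeq2 the same counts gave a log2 fold change of -0.62 and an adjusted p of 0.0197, which passed. Over the 16 alternatives the log2 fold change stayed between -0.69 and -0.54 and the adjusted p-values ran from 0.0197 to 0.9999. The highest came from the fit lacking floxed library 3, in which Gsdmd did not pass either (adjusted p = 0.1525, edgeR).

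The soluble receptors took different courses. Calcoco1 (ENSMUSG00000023055, chromosome 15, 102615212 to 102630613, minus strand), which docks on the ER through the VAP proteins, measured 76.4, 179 and 128 CPM in floxed and 140, 61.0 and 74.3 CPM in knockout libraries. As for Retreg1, floxed library 2 was the highest and knockout library 2 the lowest. The log2 fold change was -0.48 (SE 0.41, 95% interval -1.45 to 0.50, adjusted p = 0.896, edgeR). It was -0.93 without knockout library 1, -0.75 without floxed library 1, -0.26 without knockout library 2 and -0.16 without floxed library 2. Cdk5rap3 (ENSMUSG00000018669, chromosome 11, 96798252 to 96807322, minus strand), also called C53, acts with the enzymes that attach UFM1 to stalled ER ribosomes. It measured 72.6, 69.5 and 71.7 CPM in floxed and 63.4, 55.7 and 48.6 CPM in knockout libraries. All knockout values were below the floxed ones, and the log2 fold change was -0.35 (SE 0.16, 95% interval -0.72 to 0.02, adjusted p = 0.739, edgeR).

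**Figure D3:**
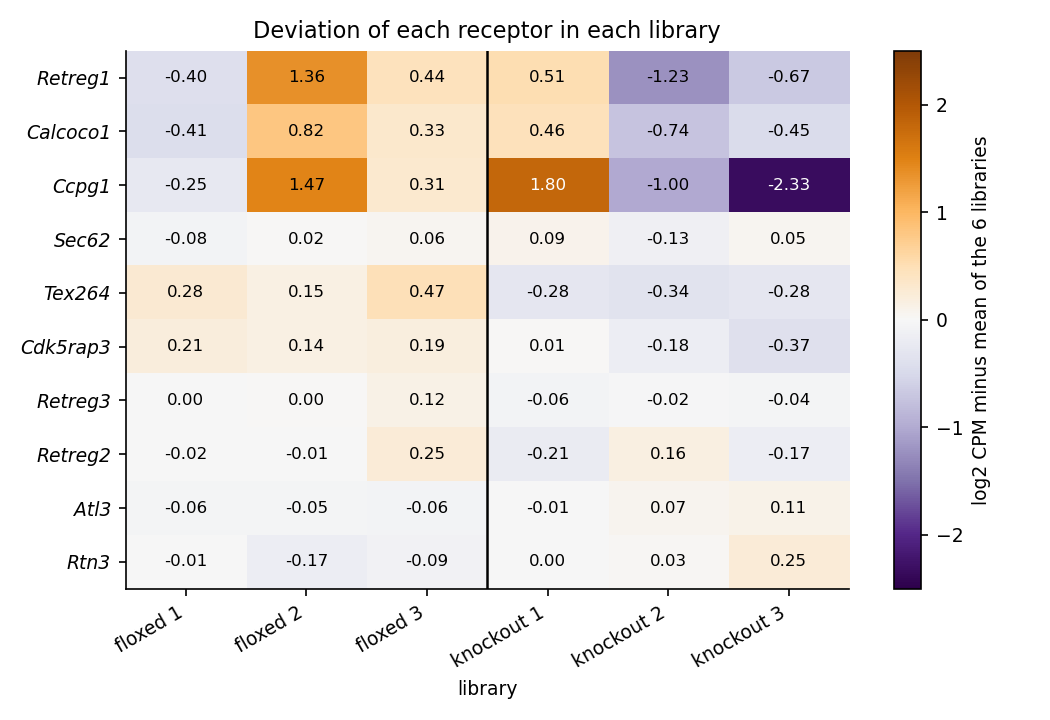
Log2 CPM of each receptor (rows) in each library (columns) minus its mean over the 6 libraries, printed in each cell. Retreg1, Calcoco1 and Ccpg1 are above their means in floxed libraries 2 and 3 and knockout library 1 and below in the other 3, while Tex264 and Cdk5rap3 are above 0 in each floxed library.

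The receptors thus varied along different lines. Retreg1, Calcoco1 and Ccpg1 were above their own means in floxed libraries 2 and 3 and in knockout library 1, with Pearson's r over the 6 libraries of 0.987 between Retreg1 and Calcoco1 and 0.82 between Retreg1 and Ccpg1. The first of these values was higher than that of 99.9% of protein-coding genes with Retreg1, the second higher than that of 91.3%. Tex264 and Cdk5rap3, which separated the genotypes in both CPM and FPKM, correlated with Retreg1 at 0.47 and 0.61 and with each other at 0.82. Rtn3 and Atl3 correlated with Retreg1 at -0.71 each and with each other at 0.86. These sets were not apart from each other. Cdk5rap3 correlated with Atl3 at -0.988 and with Rtn3 at -0.866, and Tex264 with Retreg3 at 0.835. Over all genes tested, deviations of log2 CPM from the genotype mean also correlated between floxed library 2 and knockout library 1 (r = 0.60). The correlations of the receptors describe 6 libraries, include the difference between the genotypes and share the scaling of each library.

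By the same measure, the genes most like Retreg1 among 13440 protein-coding genes were Fbxo21 (r = 0.99), which encodes an F-box protein of a ubiquitin ligase, Tarsl2 (0.99), which encodes a threonyl-tRNA synthetase, Acadsb (0.99) and Acadl (0.99), both for acyl-CoA dehydrogenases of mitochondria, and Nbr1 (0.99), for an autophagy cargo receptor. Acadl measured 312, 673 and 449 CPM in floxed and 409, 198 and 232 CPM in knockout libraries. Nbr1 spanned a narrower range and ranked the libraries as Retreg1 did, at 95.5, 132 and 116 CPM in floxed and 120, 85.0 and 90.9 CPM in knockout libraries. An r above 0.9 with Retreg1 was found for 501 of these genes, 3.73%. Among the lists described further on, it was found for 2 of 5 genes of the LC3 and GABARAP family, 3 of 11 cargo factors, 4 of 18 genes of autophagy initiation, 2 of 14 regulators and 1 of 15 ER-shaping genes. It was found for 0 of 8 genes of UFMylation, 0 of 10 of the translocon list, 0 of 12 of the COPII coat and 0 of 12 of lysosome delivery. The genes most like Tex264 were Bbc3 (r = 0.999), the p53 target that encodes PUMA, Rin2 (0.995) and Gpr155 (0.989). Bbc3 measured 41.9, 38.6 and 46.6 CPM in floxed and 29.8, 29.7 and 30.5 CPM in knockout libraries, and its adjusted p was 0.578 in edgeR.

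**Figure D4:**
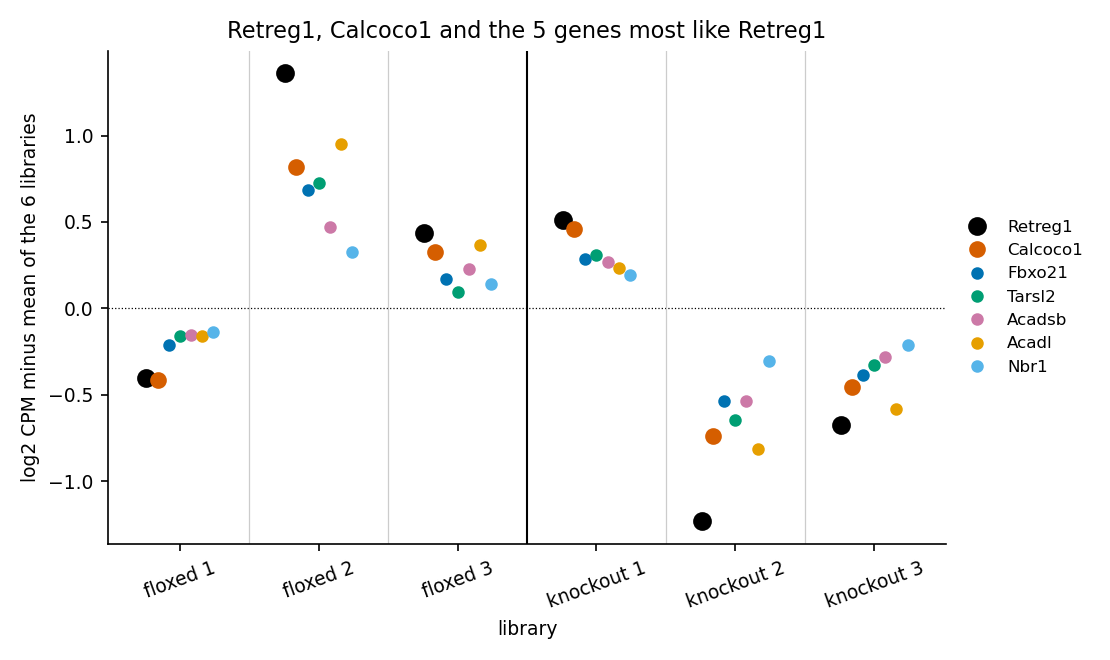
Log2 CPM minus the mean of the 6 libraries (vertical axis) for Retreg1, Calcoco1 and the 5 genes most like Retreg1, by library. All 7 genes are above 0 in floxed libraries 2 and 3 and knockout library 1 and below 0 in the other 3 libraries, and Retreg1 spans the widest range, from -1.23 to 1.36.

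Markers of other cell types also differed between the libraries, and their part in the levels of the receptors was not tested. In bulk tissue, fewer cells of a type and less RNA per cell cannot be told apart. The 8 markers of T and NK cells, all with positive log2 fold changes and none at 0 in any library, summed to 126, 56.1 and 88.7 CPM in floxed and 115, 593 and 575 CPM in knockout libraries. Their summed level was lowest in floxed library 2, where Retreg1 was highest, and highest in knockout libraries 2 and 3, where Retreg1 was lowest (r = -0.90 on the log2 scale over 6 libraries). Of 10 cardiomyocyte markers 9 had negative log2 fold changes, and their sum had an r of 0.57 with Retreg1. For macrophages, 5 of 7 were negative, with sums of 2018 to 3835 CPM in floxed and 1363 to 3617 CPM in knockout libraries and an r of -0.63. None of the markers of these lists was at 0.

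Other lists moved in both directions. Skeletal muscle markers were negative for 5 of 5 tested, of which Tnnt3 passed the test, with Myh4 at 0 in at least 1 library, and summed to 823 to 973 CPM in floxed and 383 to 759 CPM in knockout libraries. The 4 atrial markers summed to 1207 to 1564 against 261 to 603 CPM although 3 of them were positive, with Sln at 0 in at least 1 library. Their median log2 fold change was 3.48, so the lower sum does not describe most of the list. Erythroid markers were positive for 5 of 5, at 5.29 to 14.8 against 49.2 to 406 CPM, with Hbb-bt at 0 in at least 1 library. These 3 sums did not overlap between the genotypes. The sums of the remaining lists overlapped: fibroblast markers (5 of 7 negative, 4801 to 9850 against 3978 to 12033 CPM), endothelial markers (6 of 6 positive, 828 to 1192 against 576 to 1836 CPM), smooth muscle and pericyte markers (5 of 5 positive, 565 to 753 against 637 to 1025 CPM) and neutrophil markers (3 of 4 negative, 41.2 to 67.2 against 32.6 to 78.6 CPM, Retnlg at 0 in at least 1 library). On the log2 scale, the sums of skeletal muscle, atrial and erythroid markers had an r with Retreg1 of 0.64, 0.58 and -0.63. The r of fibroblast markers was -0.47, of endothelial markers 0.31, of smooth muscle and pericyte markers -0.15 and of neutrophil markers -0.67. The share of mitochondrially encoded reads had an r of 0.37 with Retreg1.

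The receptors work with other genes, listed in 9 groups that comprised 105 genes, all tested. None of the 105 passed edgeR's test, the lowest adjusted p being 0.529. With DESeq2, Stbd1 (adjusted p = 0.0242) and Ctsd (adjusted p = 0.0395) passed among the genes named below. In edgeR 6 of the 105 had an unadjusted p under 0.05, all of them lower in the knockout. Of all genes, 2.65% were lower and 4.37% higher at that threshold. Log2 fold changes were negative for 69 and positive for 36, beside 46.2% negative over all genes. In CPM every knockout library lay below every floxed library for 12 and above for 2, beside 5.98% and 5.82% of all genes.

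The LC3 and GABARAP family, to which the receptors bind, was negative in log2 fold change for 5 of 5 genes (median -0.35). Gabarapl1 measured 115, 198 and 185 CPM in floxed and 150, 69.2 and 78.6 CPM in knockout libraries, which gave a log2 fold change of -0.74 (SE 0.36, adjusted p = 0.757, edgeR). Without knockout library 1 it was -1.18 (adjusted p = 0.0678, edgeR). This resembled Retreg1 (r = 0.95), and so did Map1lc3b (r = 0.98), at 203, 326 and 293 CPM in floxed and 279, 176 and 191 CPM in knockout libraries. Gabarap, which averaged 390 ± 31.4 and 320 ± 27.1 CPM (SD, n = 3), had no overlap between the genotypes and an r of 0.14 with Retreg1. Gabarapl2 averaged 59.0 ± 7.16 and 47.4 ± 6.79 CPM. The 18 genes of autophagy initiation and membrane supply had a median of -0.07, with 12 negative, 6 positive and 0 without overlap. The smallest p-values among them were those of Atg101, a subunit of the ULK1 complex (54.1 ± 9.15 and 41.1 ± 12.6 CPM), and of Wipi2 (93.8 ± 6.13 and 73.6 ± 24.3 CPM) and Wipi1 (67.6 ± 18.6 and 54.3 ± 19.6 CPM), which bind phosphoinositide on the growing membrane.

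Genes near the single receptors gave small differences. The UFMylation enzymes, the partners of Cdk5rap3, had a median of -0.05 over 8 genes, 7 of them negative. Ufm1, the modifier itself, averaged 67.4 ± 3.60 and 59.1 ± 13.4 CPM, Ufsp2, a protease that removes it, 29.6 ± 2.87 and 26.8 ± 3.07 CPM, and Ddrgk1, the ER anchor of the ligase, 127 ± 18.4 and 110 ± 38.7 CPM (floxed and knockout, SD, n = 3). Vapa and Vapb, the docking proteins of Calcoco1, averaged 95.02 ± 2.67 and 83.2 ± 3.28 CPM and 111 ± 3.97 and 95.3 ± 13.1 CPM. Of these, Vapa did not overlap between the genotypes, and the list of the translocon and ER entry partners had a median of 0.04 over 10 genes. Sec61b, a subunit of the channel with which Sec62 works, averaged 49.8 ± 12.9 and 63.3 ± 25.2 CPM. The COPII coat, which shapes ER exit sites, had a median of 0.00090 over 12 genes, with Sec24b (54.1 ± 3.26 and 64.8 ± 2.46 CPM) and Sec24c (107 ± 1.85 and 121 ± 6.21 CPM) higher without overlap and Sar1b at 58.3 ± 4.24 and 51.7 ± 10.6 CPM. Sar1a (194 ± 0.724 and 181 ± 3.45 CPM) was lower without overlap. None of these genes passed.

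Rtn4, a reticulon that shapes ER tubules, stood out among 15 ER-shaping genes outside the receptors, a list with a median of 0.01. It measured 670, 495 and 578 CPM in floxed and 171, 274 and 372 CPM in knockout libraries. The genotypes did not overlap, and the log2 fold change was -1.09 (SE 0.32, adjusted p = 0.578, edgeR). Its relative Rtn3 had a small positive log2 fold change, 0.19, with an interval that includes 0. Reep4 averaged 17.5 ± 3.20 and 24.5 ± 7.24 CPM and Rtn1 2.03 ± 0.404 and 3.10 ± 1.08 CPM, both with overlap.

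Cargo factors and lysosomal proteases mostly had negative log2 fold changes, and none passed in edgeR. Among 11 other ER-phagy and cargo factors the median log2 fold change was -0.21, and 10 were negative. Stbd1, which tethers glycogen to membranes and carries it to autophagosomes, measured 77.8, 79.4 and 86.0 CPM in floxed and 35.7, 20.1 and 46.8 CPM in knockout libraries. No value overlapped, and the log2 fold change was -1.24 (SE 0.30, adjusted p = 0.529, edgeR) or -1.25 with DESeq2, where it passed (adjusted p = 0.0242). Sqstm1, which encodes the cargo receptor p62, had a log2 fold change of -0.75 (adjusted p = 0.635 in edgeR), and Yipf3, a receptor for the Golgi, averaged 81.7 ± 5.59 and 69.3 ± 7.10 CPM; neither overlapped. Of 12 genes of lysosome delivery 10 were negative, with a median of -0.15. The cathepsin gene Ctsd measured 2252, 1456 and 2203 CPM in floxed and 851, 1032 and 1224 CPM in knockout libraries, and Ctsl averaged 506 ± 74.4 and 289 ± 73.4 CPM. Both were without overlap, with adjusted p-values of 0.578 and 0.607 in edgeR, and with DESeq2 Ctsd passed at a log2 fold change of -0.94 (adjusted p = 0.0395), while Ctsb, at 2521 ± 674 and 1516 ± 577 CPM, overlapped.

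The 14 regulators reported for ER-phagy genes had a median of -0.02, with 9 negative and 5 positive. Atf6, a sensor of unfolded protein in the ER, measured 89.8, 103 and 104 CPM in floxed and 63.2, 63.6 and 85.5 CPM in knockout libraries. The genotypes did not overlap, at a log2 fold change of -0.48 (SE 0.18, adjusted p = 0.665, edgeR). Atf4, the transcription factor of the integrated stress response, averaged 201 ± 17.2 and 169 ± 12.0 CPM, also without overlap, and Ern1, which encodes the sensor IRE1, 23.1 ± 1.02 and 18.1 ± 5.06 CPM, with overlap.

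**Figure D5:**
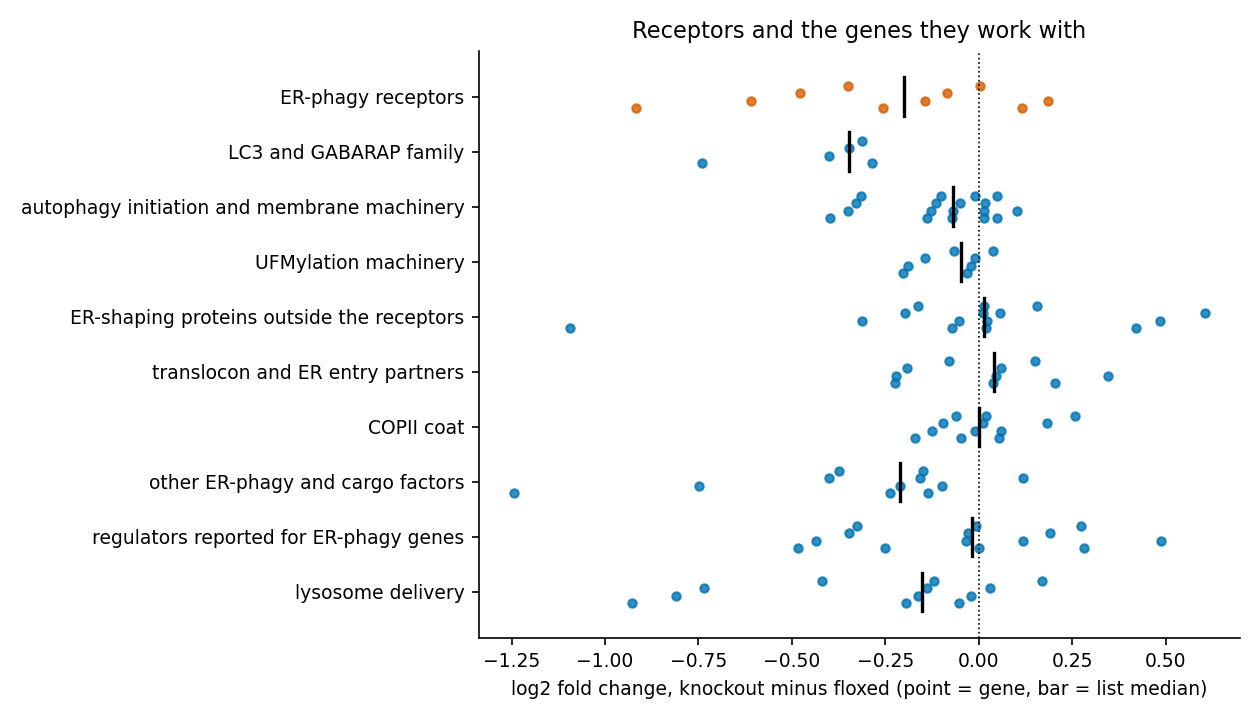
Log2 fold change, knockout minus floxed (horizontal axis), of every receptor (orange) and of the genes in the 9 groups they work with (blue), each point being a gene and each bar the median of its list. The medians lie between -0.35 for the LC3 and GABARAP family and 0.04 for the translocon and ER entry partners, and the receptors' median is -0.20.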

How the data were processed

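Per the labels' protocols, heart RNA was made into stranded mRNA libraries. The deposited tables hold raw whole-number counts for 35618 genes and FPKM values for 35606 of them. Per the submitters' processing notes, which give no roles, featureCounts 1.6.2, HISAT2 2.1.0, fastp 0.19.3 and the mm10 build were among the tools and builds. Strand and multi-mapping rules of counting are not given in the sources used here. Positions of genes are printed as the deposited table gives them. Their build could not be settled: all 10 receptors have the span of GENCODE M21 (mm10) but 0 the same start, with offsets of 86 to 122801 bases. Start windows come from RefSeq, GRCm38.p6. There were 0 value columns of other samples.

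Counts of all 6 libraries (3 per genotype) were fitted with edgeR 4.0.16 (R 4.3.3): filterByExpr with a minimum count of 10, which kept 16591 genes, TMM scaling to full library totals, robust quasi-likelihood with genotype as the only term, and a threshold of 0.05 on the adjusted p. Standard errors come from the F statistic. Correlations used log2 CPM with a prior count of 2. Alternatives were RLE, library sizes without mitochondrial genes and Gsdmd, no filter, limma-voom (limma 3.58.1), DESeq2 1.42.0, a minimum mean of 1 CPM, edgeR without robust estimation, limma on log2(FPKM + 1) and log2(FPKM + 0.1), the replicate number as a block, and each library left out. The fit was tested on data simulated for this comparison with 16591 genes, where the share recovered by edgeR was 8.16% for a log2 change of 1, 66.7% for 2 and 96% for 3 (11 of 142 calls false). DESeq2 reached 32.7%, 91.7% and 98% (53 of 210 calls false). An exact permutation test of 3 against 3 cannot go below p = 0.1, so none is given.

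The receptors, lists, tests and rule for named genes were chosen with earlier results of these data known. The rule named the 10 receptors, Gsdmd, for each list the members past the threshold or else the 3 with the smallest p, the 5 protein-coding genes with a mean of at least 1 CPM most correlated with Retreg1, and the 3 most correlated with the receptor of smallest p. Map1lc3b and Sar1a were added after their values were seen. Figures were drawn with matplotlib 3.10.9.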

Additional observations from a re-analysis of the deposited data

How the results depend on the processing

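The number of genes called over all genes, 2 of 16591, was 10 without a filter on low counts, 243 with DESeq2, 1 with limma-voom and 0 with the replicate block (509 at an unadjusted p under 0.05), and 0 to 500 with 1 library left out, the 500 without knockout library 1. The number of receptors called, 0, was 1 (Tex264) with DESeq2 and 0 under the other 15 alternatives. The causes were not tested. Gsdmd itself did not pass with the replicate block (adjusted p = 0.343, edgeR). Among the fits that dropped 1 library, Gsdmd passed only in the one lacking knockout library 1 (adjusted p = 0.00497, edgeR). In the rest its adjusted p ran from 0.0724 to 0.166. Where the knocked-out gene itself fails, a fit cannot show whether a receptor differs, so its 0 calls carry no weight. At an unadjusted p under 0.05, edgeR had 1 receptor with all libraries, beside 1164 of 16591 genes, and 5 without knockout library 1, beside 3253 of 17125 genes. Between 6 and 8 receptors had negative log2 fold changes under every alternative, against 7. Retreg1 ranged from -0.95 to -0.89 under the 10 alternatives that kept all libraries and from -1.58 to -0.36 with 1 left out. Retreg1 passed under none of the 16, but those in which Gsdmd also failed could not decide this. Sec62, at 0.0040, was -0.0042 with RLE, -0.0145 with the library sizes without mitochondrial genes and Gsdmd, -0.0114 without a filter, -0.0044 with DESeq2 and -0.059 to 0.064 with 1 library left out. With all libraries kept, Ccpg1 was -1.35 with limma-voom, -1.31 with the replicate block and -0.065 with log2(FPKM + 1), against -0.26. Ccpg1 ran from -2.62 to 0.43 and Ddrgk1 from -0.52 to 0.015 with 1 library left out. Without knockout library 1, Atg101 was at -0.69, Wipi2 at -0.67 and Wipi1 at -0.56, against -0.40, -0.35 and -0.32. Without floxed library 2 they were at -0.29, -0.33 and -0.089. Ufm1, Ufsp2, Reep4, Rtn1, Vapb, Sec61b, Sar1b, Ern1 and Ctsb also moved by over 1.5 times when 1 library was left out, and none of them passed. DESeq2 called Stbd1 and Ctsd, which edgeR did not. Same-numbered libraries did not deviate together from their genotype means over all genes tested (r of -0.57, -0.31 and 0.04). Differently numbered ones ranged from -0.51 (floxed 2 with knockout 3) to 0.60 (floxed 2 with knockout 1). These values gave no sign that the numbers pair the libraries, but so few libraries cannot settle it. With the replicate block in edgeR, Retreg1 was at -0.95 (adjusted p = 0.9996), 0 receptors passed and 7 were negative. Depth limits Ccpg1 most, with 2 to 56 counts; the other 9 receptors had 815 or more counts in every library.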
